A study of Rattus norvegicus with 12 samples.

Results

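The genes described here are a set of 45 that proliferating cells express in S phase or in G2 and mitosis, followed in neonatal rat heart cell cultures after transfer of the histone acetyltransferase gene KAT6A. Members were found by symbol in the count table and kept with at least 10 counts in at least 3 libraries. Of the 45, 43 had a row and all 43 met that rule, 19 of 20 S-phase genes and 24 of 25 mitotic genes. E2f1 and Ccnb2 had no row under those symbols and were not analysed here. The table holds 32883 genes, of which 14063 had enough counts to be tested.

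Primary ventricular cardiomyocytes from newborn rats received an adenovirus and were harvested after 2 days. The viruses carried human KAT6A in its wild-type form (WT), as K815R, where arginine replaces a lysine and cannot be acetylated, or as K815Q, where glutamine in its place stands for the acetylated state, and control cells received LacZ. Each group has 3 libraries, numbered 1 to 3 by the labels, and all 4 groups share the exposure to adenovirus. The labels do not say whether replicates came from separate cultures, so the p-values below measure only the spread between these samples, which may be technical. The transgene is human and the reads were counted on rat genes, so a human transcript enters the rat Kat6a count only where its sequence aligns.

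The cell cycle runs on waves of transcription. Cyclin E genes and E2F factors act at the G1/S boundary, MCM proteins are loaded at replication origins and open the DNA, and nucleotide synthesis enzymes supply the precursors. Later, FOXM1 and the B-MYB-MuvB complex drive genes for cyclins A and B, CDK1, the kinases PLK1 and Aurora, the spindle, the checkpoint and the cleavage furrow. Rodent ventricular cardiomyocytes stop dividing soon after birth, and in this transition they can replicate DNA without completing cytokinesis, so S-phase and mitotic transcripts are usually read apart in this tissue.

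The promoters of these genes are known for short elements, searched here by their letters, and sequences are shown for 10 members named in the results below. S-phase promoters are known for E2F sites, searched here as TTCCCGC and, with other letters, as TTGGCGC and likewise as TTCGCGC and finally as TTGCCGC. Mitotic promoters are known for the cell cycle genes homology region (CHR), searched as TTTGAA or TTCGAA, and for the box bound by NF-Y, searched as CCAAT. All were searched on both strands in the 250 bases before the annotated transcript start, and a match is a description of letters, not a site of binding. Sequences are the 150 bases before the start, from RefSeq on build GRCr8, whereas the counts were made on Rnor_6.0, so genes were linked by symbol alone. Capitals mark matches lying wholly inside the 150 bases, and neighbouring or overlapping matches run together. The 6 mitotic members shown first are Prc1 at chr1:143659331-143659480 (plus strand), Anln at chr8:29197514-29197663 (minus strand), Top2a at chr10:84473094-84473243 (minus strand), Mki67 at chr1:199952594-199952743 (minus strand), Cdk1 at chr20:19265143-19265292 (plus strand) and Ccnb1 at chr2:33655226-33655375 (minus strand).
Prc1: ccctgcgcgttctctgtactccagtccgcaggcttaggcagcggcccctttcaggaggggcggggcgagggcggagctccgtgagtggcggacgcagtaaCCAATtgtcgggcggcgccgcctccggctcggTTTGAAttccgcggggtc
Anln: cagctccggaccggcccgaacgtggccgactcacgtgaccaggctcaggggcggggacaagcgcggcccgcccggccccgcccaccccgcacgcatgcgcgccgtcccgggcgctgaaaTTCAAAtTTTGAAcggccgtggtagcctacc
Top2a: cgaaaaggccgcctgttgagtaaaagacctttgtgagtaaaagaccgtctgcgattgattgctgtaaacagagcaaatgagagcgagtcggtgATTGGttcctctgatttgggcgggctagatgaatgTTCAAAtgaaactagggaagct
Mki67: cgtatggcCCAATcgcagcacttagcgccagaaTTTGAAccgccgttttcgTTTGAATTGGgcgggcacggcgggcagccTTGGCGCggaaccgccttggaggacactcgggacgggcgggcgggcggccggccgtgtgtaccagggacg
Cdk1: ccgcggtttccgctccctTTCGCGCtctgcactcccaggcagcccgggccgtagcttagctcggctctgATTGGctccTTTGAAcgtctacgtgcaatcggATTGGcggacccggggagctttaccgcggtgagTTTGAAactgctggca
Ccnb1: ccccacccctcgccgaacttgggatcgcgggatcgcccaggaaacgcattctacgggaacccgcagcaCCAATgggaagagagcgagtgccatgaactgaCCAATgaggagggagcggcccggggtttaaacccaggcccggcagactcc

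The 4 S-phase members shown come from the MCM family and nucleotide supply, and Mcm5 among them was not called in any comparison. They are Rrm1 at chr1:166235754-166235903 (plus strand), Mcm2 at chr4:122918095-122918244 (minus strand), Mcm3 at chr9:30733747-30733896 (minus strand) and Mcm5 at chr19:13488663-13488812 (plus strand).
Rrm1: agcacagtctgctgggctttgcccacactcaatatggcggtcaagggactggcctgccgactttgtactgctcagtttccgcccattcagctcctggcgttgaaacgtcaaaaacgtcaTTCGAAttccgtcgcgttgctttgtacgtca
Mcm2: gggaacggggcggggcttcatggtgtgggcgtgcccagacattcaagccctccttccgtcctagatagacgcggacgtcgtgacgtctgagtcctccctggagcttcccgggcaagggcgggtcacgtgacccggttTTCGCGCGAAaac
Mcm3: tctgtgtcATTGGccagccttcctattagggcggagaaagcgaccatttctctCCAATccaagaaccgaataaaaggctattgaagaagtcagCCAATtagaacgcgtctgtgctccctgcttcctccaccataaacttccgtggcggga
Mcm5: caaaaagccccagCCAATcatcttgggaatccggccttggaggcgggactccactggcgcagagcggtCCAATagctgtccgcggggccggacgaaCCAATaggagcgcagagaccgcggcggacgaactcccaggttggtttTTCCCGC

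Promoters were matched for 33 of the 43 members. Of 19 mitotic promoters, 10 (52.6%) held a CHR match, 15 (78.9%) a CCAAT match and 8 (42.1%) both, against 17.4%, 34.0% and 6.31% of all 33469 promoters of that length. Of 14 S-phase promoters, 7 (50.0%) held an E2F match, against 7.59% of all promoters and 3 of the 19 mitotic ones (15.8%). A CCAAT match was also held by 9 of the 14 S-phase promoters (64.3%), so it was common in both lists. A CHR match was held by 3 of the 14 (21.4%), and both by 2 (14.3%). Prc1, Top2a, Mki67 and Cdk1 above carry both a CHR and a CCAAT match, Mki67 and Cdk1 an E2F match as well, Anln carries CHR matches alone, and Ccnb1 carries CCAAT matches alone. Mcm3 was the member of the MCM family here with CCAAT matches and no E2F match in this window. The plot of motif positions shows where each match lies.

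**Figure D1:**
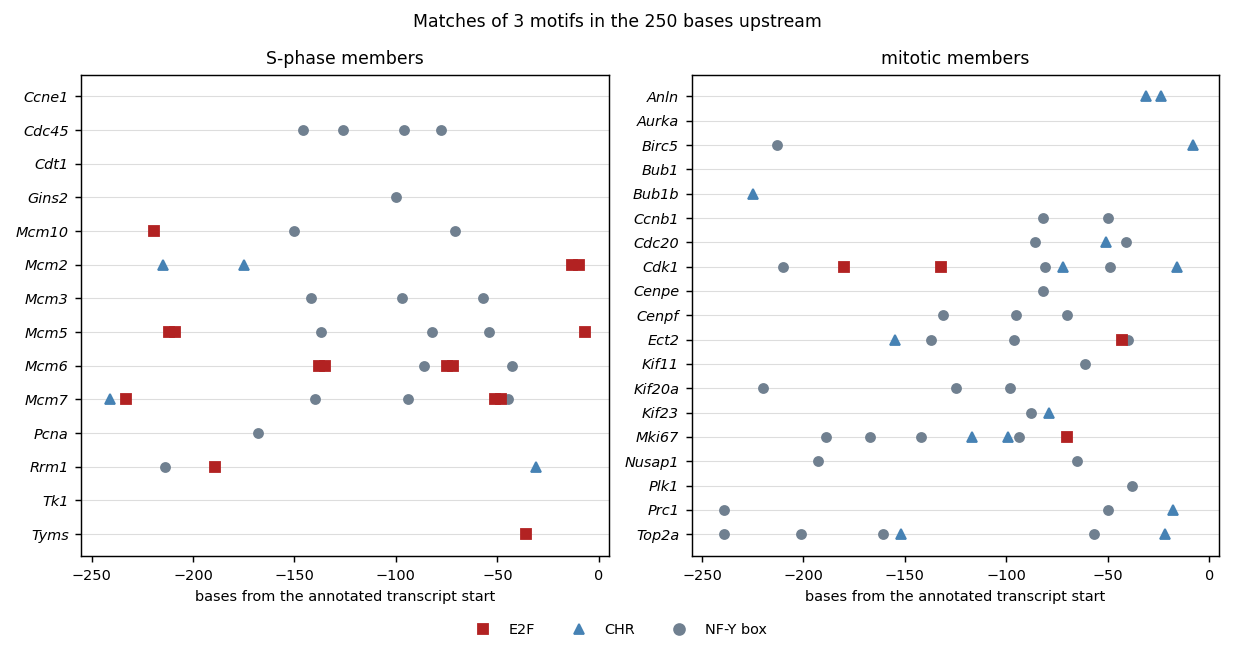
Matches of the E2F, CHR and NF-Y (CCAAT) motifs in the 250 bases before the annotated start, one line per member with a matched promoter (14 S-phase, 19 mitotic). The horizontal axis is the distance in bases to the transcript start, and each symbol is 1 match on either strand. E2F matches lie on 7 S-phase and 3 mitotic lines, CHR matches on 3 and 10, and CCAAT matches on 9 and 15.

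The 12 libraries held 19102048 to 25451686 counts in genes, of which the 43 members took 16452 to 27029, and the lowest count of any member in any library was 54. The rat Kat6a row, the check on the transgene, stood at 48.1 ± 4.75 CPM (counts scaled to library size, SD, n = 3) in LacZ, 93.0 ± 12.3 in WT and 108 ± 11.7 in K815R. It stood at 46.3 ± 3.35 CPM in the K815Q-labelled libraries, a log2 difference from LacZ of -0.054 (edgeR's quasi-likelihood test, Benjamini-Hochberg adjusted p = 0.815). The third KAT6A group is therefore called by its label throughout, and directions drawn from it are directions of those libraries. Of the cardiomyocyte markers, 9 of 10 had a row and none was at 0 in any library, and the lowest mean of any of them over the 12 libraries was 677 CPM.

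Mitotic transcripts were lower in all 3 KAT6A groups than in LacZ, while most S-phase transcripts did not pass the test. Of the 24 mitotic members, 15 fell in WT, 17 in K815R and 17 in the K815Q-labelled libraries at an adjusted p under 0.05, and 0 rose. Over all genes tested, 3.39%, 1.74% and 4.98% fell in the same comparisons, and 1.95%, 0.74% and 2.87% rose. All 24 had a fold change below 0 in each comparison, with a median log2 fold change of -0.37, -0.42 and -0.44, against 0.0087, 0.0034 and 0.0065 over all genes. Of the 19 S-phase members, 2 fell in WT, 0 in K815R and 6 in the K815Q-labelled libraries, 0 rose, and the medians were -0.11, -0.08 and -0.15. In K815R, 5 S-phase members had an unadjusted p under 0.05, beside 1938 of all 14063 genes, and DESeq2 also called 0 S-phase members. In these bulk cultures, fewer cycling cells and less RNA of these genes per cell cannot be told apart. The 3 comparisons share the LacZ libraries, so they are not independent of each other.

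The same split was seen in the mean of the 3 KAT6A groups against LacZ, where 21 of 24 mitotic and 4 of 19 S-phase members fell and 0 rose, beside 4.31% of all genes that fell and 2.35% that rose. The median log2 difference was -0.40 for the mitotic members. The test for a difference anywhere among the groups passed for 19 mitotic and 4 S-phase members, against 8.13% of all genes. For 18 of 24 mitotic members every LacZ library lay above all 9 others, which held for 0 of 19 S-phase members and for 3.53% of all genes tested. Group by group, all 3 libraries lay below all 3 of LacZ for 20 mitotic members in WT, 22 in K815R and 19 in the K815Q-labelled libraries, and for 5, 1 and 9 S-phase members. The same held for 12.3%, 9.6% and 14.5% of all genes. The 12 mitotic members called in all 3 comparisons were Ccnb1, Cdk1, Plk1, Aurka, Mki67, Top2a, Cdc20, Kif11, Tpx2, Nusap1, Prc1 and Anln. The heat map of all members shows the drop below the line that parts the lists, and the uneven columns within each group.

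**Figure D2:**
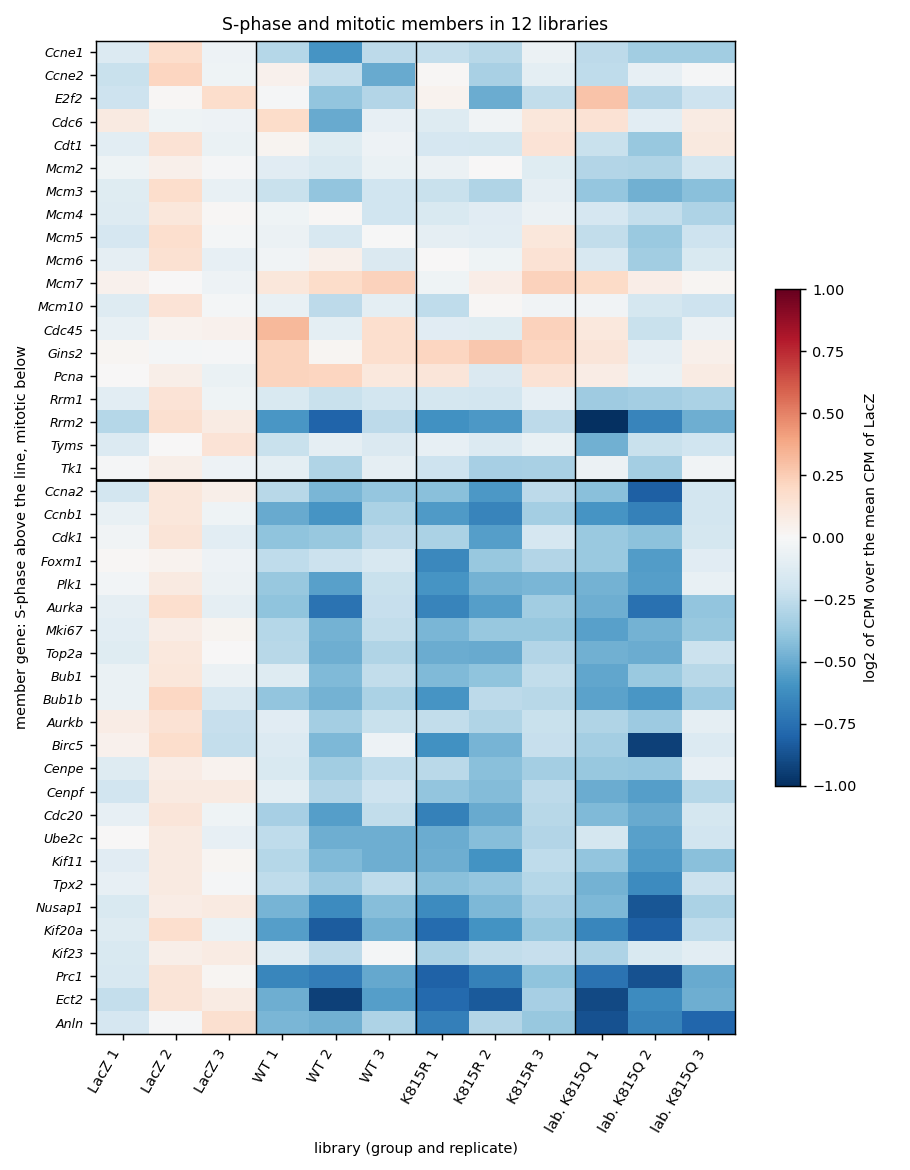
Level of each of the 43 members (rows, S-phase above the line, mitotic below) in each of the 12 libraries (columns), as log2 of CPM over the mean CPM of the 3 LacZ libraries, with blue below and red above. Mitotic rows are mainly blue in the 9 KAT6A libraries, and all 24 have negative fold changes in each comparison, as do 14 or 15 of the 19 S-phase rows.

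The number of calls depended on single libraries, while the direction did not in the fits run. LacZ 2 was the highest LacZ library for 20 of 24 mitotic members and LacZ 1 the lowest for 17. WT 2 was the lowest WT library for 21, and K815R 3 and the library labelled K815Q 3 were the highest of their groups for 21 each. Without WT 2, 1 of the 15 mitotic calls in WT remained. Without LacZ 2, 3 remained, without WT 1, 6, without LacZ 3, 8, without WT 3, 10, and without LacZ 1, 12. Of the 17 calls in K815R, 2 remained without K815R 1, 3 without K815R 2, 4 without LacZ 2, 9 without LacZ 3, 13 without LacZ 1 and 15 without K815R 3. Of the 17 in the K815Q-labelled libraries, 8 remained without LacZ 2, 9 without number 1 of that group, 11 without its number 2, 13 without LacZ 3, 15 without LacZ 1 and 17 without its number 3. Of the 21 calls for the mean of the 3 groups, 10 remained without LacZ 2, 15 without LacZ 3, 20 without LacZ 1, and 21 without any 1 of the 9 KAT6A libraries. Calls over all genes changed too, to 2.65% to 4.49% of genes in WT and 1.21% to 2.16% in K815R. They were 2.52% to 8.3% in the K815Q-labelled libraries and 2.36% to 8.61% for the mean. Without WT 2 the share was 2.66%, so the 1 mitotic member still called there is near the share of all genes. With 1 library left out, the mitotic median lay between -0.41 and -0.31 with WT, between -0.50 and -0.37 with K815R, and between -0.52 and -0.36 for the K815Q-labelled group. In every one of 65 fits against LacZ, all 24 mitotic members stayed below 0, and their median lay between -0.52 and -0.31. These fits reuse the same 12 libraries, and the members tended to rank alike by library. Neither the fits nor the members are therefore independent of each other, and the direction rests on 3 LacZ libraries.

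The drop was also visible in the mean of each list by library. Expressed as log2 CPM minus each gene's mean over the 12 libraries, the mean over the 24 mitotic members was 0.22, 0.42 and 0.29 in LacZ 1 to 3 and -0.0038, -0.18 and 0.015 in WT. It was -0.22, -0.16 and 0.011 in K815R and -0.17, -0.27 and 0.048 in the K815Q-labelled libraries. All 3 LacZ libraries were above the other 9. The S-phase mean was 0.005, 0.19 and 0.088 in LacZ, 0.06, -0.10 and -0.000099 in WT, -0.013, -0.057 and 0.092 with K815R, and -0.057, -0.16 and -0.048 in the K815Q-labelled libraries. Here LacZ 1 lay among the KAT6A libraries, and no KAT6A group was clear of LacZ except the K815Q-labelled libraries.

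**Figure D3:**
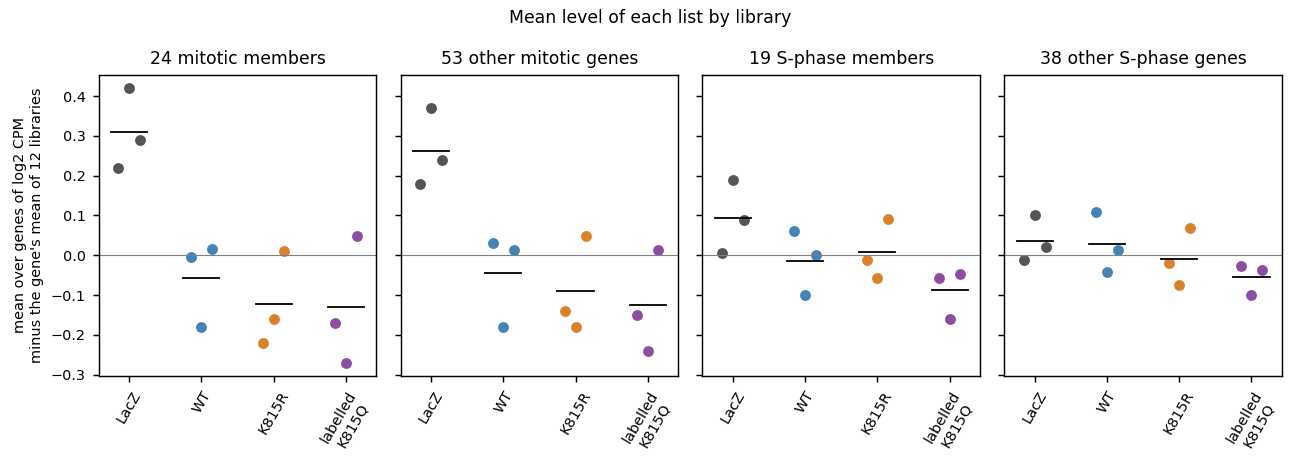
Mean over each list of log2 CPM minus the gene's own mean over the 12 libraries (vertical axis), 1 point per library and 1 short line per group mean, for the members and for 53 other mitotic and 38 other S-phase genes. The 3 LacZ points of the mitotic members, 0.22 to 0.42, lie above the 9 others, which reach at most 0.048.

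Among the genes of mitotic entry, cyclin B1, CDK1 and PLK1 fell in every KAT6A group. Ccnb1, the cyclin that activates CDK1 for mitosis, stood at 15.8, 18.0 and 16.1 CPM in LacZ, 11.7, 11.0 and 13.3 in WT, 11.2, 10.5 and 13.1 with K815R, and 11.0, 10.4 and 14.6 in the K815Q-labelled libraries. Cdk1, the kinase itself, stood at 34.0, 38 and 32.4 CPM in LacZ, 26.3, 26.7 and 29.1 in WT, 28.0, 23.8 and 30.9 with K815R, and 26.9, 26.2 and 30.8 in the K815Q-labelled libraries. For both, the lowest LacZ library was above the highest of the other 9. Log2 fold changes were -0.47 (SE 0.114), -0.52 (0.113) and -0.47 (0.115) for Ccnb1, in the order WT, K815R and K815Q-labelled, at adjusted p of 0.018, 0.0147 and 0.0162 (quasi-likelihood test of edgeR, Benjamini-Hochberg adjusted, as for all adjusted p below). For Cdk1 they were -0.34 (SE 0.0879), -0.34 (0.0872) and -0.31 (0.088), at adjusted p of 0.0236, 0.0402 and 0.0339.

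Plk1, a kinase of mitotic entry and spindle assembly, stood at 20.7, 22.5 and 20.3 CPM in LacZ, 16.2, 14.5 and 18.1 in WT, 14.0, 15.2 and 15.4 with K815R, and 15.2, 14.4 and 20.0 in the K815Q-labelled libraries. It fell, with changes of -23.0%, -29.7% and -22.0% (adjusted p = 0.0323, 0.00746 and 0.0367), with number 3 of the last group just under the lowest LacZ library. Foxm1, the transcription factor of the G2/M wave, stood at 11.7, 11.9 and 11.2 CPM in LacZ, 9.74, 10.0 and 10.4 in WT, 7.42, 8.91 and 9.45 with K815R, and 8.99, 7.87 and 10.7 in the K815Q-labelled libraries. The 9 KAT6A libraries were again all below LacZ, yet the call was made in K815R alone, where its log2 value was -0.43 (SE 0.106, adjusted p = 0.0295), against -0.21 in WT (0.291) and -0.34 in the K815Q-labelled libraries (0.0564). Whether K815R differs from WT there was tested directly, and Foxm1 was not called. Aurka, the spindle pole kinase, fell in all 3 comparisons (log2 fold changes -0.53 to -0.44), and Ccna2, cyclin A2 of S phase and G2, fell in the K815Q-labelled libraries (-0.45).

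In the mean of the 3 KAT6A groups all 6 genes of mitotic entry fell, beside 4.31% of all genes, with log2 differences of -0.49 to -0.32. There the calls of Ccnb1, Plk1 and Aurka held in all 12 fits that each left out 1 library, that of Cdk1 was lost without LacZ 2, that of Ccna2 without LacZ 2 or LacZ 3, and that of Foxm1 without LacZ 1, 2 or 3. Calls in single comparisons were lost more often. Those of Ccnb1 and Cdk1 were lost without LacZ 2 or without number 1 or 2 of the KAT6A group compared, and those of Cdk1 in both mutant groups also without LacZ 1. That of Plk1 in K815R was lost without K815R 1, and its others without any LacZ library or number 1 or 2 of the KAT6A group. That of Foxm1 was lost without any LacZ library, K815R 1 or K815R 2. All 3 calls of Aurka were lost without LacZ 2, that in WT also without LacZ 1, LacZ 3, WT 1 or WT 2, and that in K815R also without K815R 1 or 2. The Ccna2 call was lost without LacZ 2, LacZ 3 or number 1 or 2 of the K815Q-labelled libraries.

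The proliferation marker Mki67, whose protein coats mitotic chromosomes, and Top2a, which untangles replicated DNA, fell in all 3 comparisons. Mki67 stood at 41.1, 46.6 and 45.2 CPM in LacZ, 36.3, 31.9 and 37.4 in WT, 32.2, 34.0 and 34.1 with K815R, and 30.4, 32.0 and 34.1 in the K815Q-labelled libraries. Its log2 fold changes were -0.33 (SE 0.0687), -0.41 (0.0685) and -0.46 (0.0694), at adjusted p of 0.00475, 0.00138 and 0.000207. Every LacZ library was above every other library, and 1 of these calls, that in WT, was lost on leaving out a library, WT 2. Top2a stood at 63.5, 74.0 and 69.1 CPM in LacZ, 56.8, 49.0 and 55.9 in WT, 48.8, 48.6 and 56.3 with K815R, and 49.4, 48.9 and 59.4 in the K815Q-labelled libraries. It fell, with changes of -21.7%, -25.6% and -23.7% (adjusted p = 0.0172, 0.00798 and 0.00891). Its call in WT was lost without LacZ 2, LacZ 3 or WT 2, that in K815R without K815R 1 or 2, and that in the K815Q-labelled libraries without number 1 of that group.

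Of the 8 checkpoint, chromosomal passenger, kinetochore and anaphase-promoting complex genes, 3 fell in WT, 5 in K815R and 4 in the K815Q-labelled libraries, with medians of -0.25, -0.36 and -0.38. Of all genes tested, 3.39%, 1.74% and 4.98% fell in the same comparisons. Cenpf, a kinetochore protein, stood at 25.1, 30.4 and 30.4 CPM in LacZ, 26.8, 23.4 and 24.8 in WT, 21.7, 21.2 and 23.8 with K815R, and 20.3, 19.5 and 23.5 in the K815Q-labelled libraries. WT overlapped LacZ and was not called (log2 fold change -0.20, adjusted p = 0.196), while K815R (-0.36, 0.0205) and the K815Q-labelled libraries (-0.44, 0.00286) were. The K815R call was lost without LacZ 2, LacZ 3, K815R 1 or K815R 2. Aurkb, the passenger complex kinase, stood at 14.1, 14.8 and 11.4 CPM in LacZ, 12.4, 10.6 and 11.5 in WT, 11.3, 10.9 and 11.5 with K815R, and 10.9, 10.4 and 12.6 in the K815Q-labelled libraries. It was not called in any comparison (log2 fold changes -0.22, -0.26 and -0.25, adjusted p = 0.232, 0.22 and 0.132), and LacZ 3 lay inside the range of the KAT6A libraries.

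The other 6 genes of this role were called in part. Cdc20, which activates the anaphase-promoting complex, fell in all 3 comparisons (-0.47 to -0.37). Bub1, a checkpoint kinase, fell in K815R and in the K815Q-labelled libraries (-0.36 and -0.39), and Bub1b, the checkpoint protein BUBR1, in WT and in the K815Q-labelled libraries (-0.39 and -0.49). Ube2c, the ubiquitin-conjugating enzyme of that complex, fell in WT and K815R (-0.41 in each), and Cenpe, the kinetochore motor, in K815R (-0.34). Birc5, survivin of the passenger complex, was not called (-0.44 to -0.20). Each of these calls was lost without at least 1 library. Without LacZ 2, that of every one of Cdc20, Bub1, Bub1b, Ube2c and Cenpe was lost in every comparison.

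The 6 spindle motors and microtubule proteins include Prc1, the called member of this role with the lowest fold changes, which bundles the microtubules of the central spindle. Prc1 stood at 52.0, 63.5 and 58.8 CPM in LacZ, 37.0, 36.0 and 40.8 in WT, 33.1, 36.4 and 44.0 with K815R, and 34.9, 31.7 and 40.9 in the K815Q-labelled libraries. All 9 KAT6A libraries were below all LacZ libraries, at 44.0 CPM or less against 52.0 or more. It fell, with changes of -34.7%, -34.8% and -38.3%, or log2 fold changes of -0.61 (SE 0.112), -0.62 (0.112) and -0.70 (0.113), at adjusted p of 0.00645, 0.0105 and 0.00293. The calls in WT and in the K815Q-labelled libraries held in all 6 fits that left out 1 library, and that in K815R was lost without LacZ 3 or K815R 2.

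Kif11, the motor that separates spindle poles, stood at 14.8, 17.0 and 16.2 CPM in LacZ, 13.1, 11.8 and 11.4 in WT, 11.4, 10.6 and 13.4 with K815R, and 12.2, 10.8 and 12.0 in the K815Q-labelled libraries. Tpx2, which activates Aurora A on the spindle, stood at 28.4, 32.0 and 29.8 CPM in LacZ, 25.2, 23.4 and 25.3 in WT, 22.5, 23.0 and 24.7 with K815R, and 21.7, 19.5 and 25.9 in the K815Q-labelled libraries. Nusap1, a microtubule-bundling protein, stood at 14.0, 16.4 and 16.6 CPM in LacZ, 11.3, 10.1 and 11.6 in WT, 10.1, 11.4 and 12.4 with K815R, and 11.4, 8.63 and 12.5 in the K815Q-labelled libraries. None of these 3 genes overlapped between LacZ and any KAT6A group. Log2 fold changes were -0.40, -0.44 and -0.46 for Kif11 (adjusted p = 0.0123, 0.0102 and 0.00497), -0.29, -0.36 and -0.43 for Tpx2 (0.0426, 0.0172 and 0.00267) and -0.51, -0.47 and -0.53 for Nusap1 (0.00879, 0.0242 and 0.00664).

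The calls of Kif11, Tpx2 and Nusap1 in the K815Q-labelled libraries held in all 6 fits that left out 1 library. In WT, that of Kif11 was lost without LacZ 2, WT 2 or WT 3, that of Tpx2 without LacZ 2, LacZ 3 or any WT library, and that of Nusap1 without WT 2. In K815R all 3 were lost without LacZ 2, K815R 1 or K815R 2, and Nusap1 also without LacZ 3. Kif20a, the motor of the central spindle, had log2 fold changes of -0.61, -0.57 and -0.55, as low as those of called genes, with standard errors of 0.157, 0.155 and 0.157 and no call (adjusted p = 0.0544, 0.106 and 0.0612). Kif23, a subunit of centralspindlin, was not called either (-0.27 to -0.13).

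At the cleavage furrow, Anln, the actin-binding scaffold anillin, stood at 15.1, 16.9 and 19 CPM in LacZ, 12.4, 12.2 and 13.7 in WT, 10.6, 13.9 and 13.1 with K815R, and 9.30, 10.7 and 9.80 in the K815Q-labelled libraries. No KAT6A library reached the lowest LacZ library, and 2 of the K815Q-labelled libraries were the lowest of the 12. It fell, with changes of -24.9% in WT, -26.1% with K815R and -41.7% in the K815Q-labelled libraries (log2 fold changes -0.41, -0.44 and -0.78, SE 0.102, 0.1 and 0.105, adjusted p = 0.0166, 0.0187 and 6.58e-05). The first of these calls was lost without LacZ 2, LacZ 3, WT 1 or WT 2, the K815R call without LacZ 2, LacZ 3 or K815R 1, and the last held in all 6 fits. Ect2, the exchange factor that activates RhoA at the furrow, had log2 fold changes of -0.64, -0.63 and -0.66 and was called in WT and in the K815Q-labelled libraries (adjusted p = 0.0434, 0.0682 and 0.0321). Both of its calls were lost without LacZ 2 or LacZ 3, that in WT also without any WT library and the other also without number 1 or 2 of its group.

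**Figure D4:**
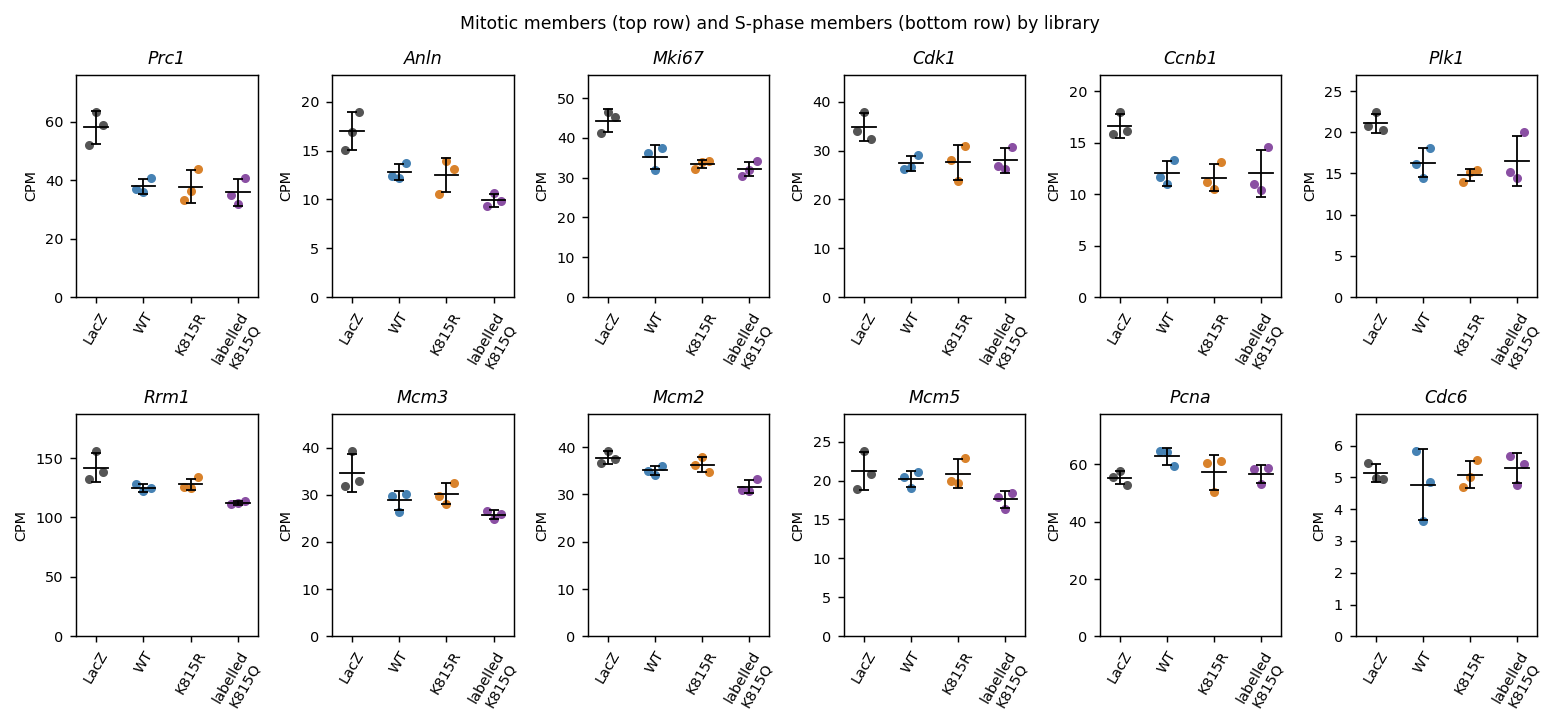
CPM in each of the 12 libraries (points), with the mean and SD of each group (line and bar, n = 3), for 6 mitotic members (top) and 6 S-phase members (bottom); every vertical axis starts at 0. Prc1 lies at 52.0 CPM or more in LacZ and at 44.0 or less elsewhere, while Cdc6 and Pcna overlap between LacZ and at least 2 KAT6A groups.

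Of the 19 S-phase members, 15 in WT, 14 in K815R and 15 in the K815Q-labelled libraries were below 0, against 6692, 6856 and 6786 of all 14063 genes, and every called one was lower. At the G1/S boundary, Ccne1, cyclin E1 that activates CDK2, stood at 13.1, 16.3 and 13.9 CPM in LacZ, 11.8, 9.56 and 12.0 in WT, 12.2, 11.9 and 13.8 with K815R, and 12.0, 11.3 and 11.3 in the K815Q-labelled libraries. It fell in WT (-0.37 on the log2 scale, SE 0.101, adjusted p = 0.0339) and not beyond the threshold in K815R (-0.19, 0.424) or in the K815Q-labelled libraries (-0.32, 0.0537). The WT call was lost without LacZ 2, LacZ 3, WT 1 or WT 2. Ccne2, cyclin E2, and E2f2, an activating E2F factor, were not called in any comparison (-0.24 to -0.052).

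The 11 genes of origin licensing and the replicative helicase had medians of -0.071, -0.023 and -0.15, and 1, 0 and 3 of them fell. Over all genes, 3.39%, 1.74% and 4.98% fell, so the 1 in WT and the 0 in K815R are near the share of all genes. Cdc6, which loads the MCM helicase, stood at 5.45, 4.99 and 4.96 CPM in LacZ, 5.83, 3.62 and 4.85 in WT, 4.69, 5.01 and 5.54 with K815R, and 5.67, 4.77 and 5.42 in the K815Q-labelled libraries. Every group overlapped LacZ, and its log2 fold changes were -0.11, -0.014 and 0.042 (adjusted p = 0.75, 0.982 and 0.891), with signs that turned on leaving out single libraries.

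The helicase subunits Mcm2 to Mcm7 form 1 ring and did not all behave alike. Mcm3 stood at 31.9, 39.3 and 32.9 CPM in LacZ, 29.7, 26.4 and 30.2 in WT, 29.8, 28.1 and 32.6 with K815R, and 26.6, 24.9 and 26.0 in the K815Q-labelled libraries. Mcm2 stood at 36.7, 39.2 and 37.4 CPM in LacZ, 34.9, 34.1 and 36.1 in WT, 36.3, 38 and 34.7 with K815R, and 30.9, 30.7 and 33.2 in the K815Q-labelled libraries. Mcm5 stood at 18.9, 23.8 and 20.9 CPM in LacZ, 20.4, 19 and 21.1 in WT, 19.9, 19.7 and 22.9 with K815R, and 17.9, 16.4 and 18.4 in the K815Q-labelled libraries. For all 3 subunits the K815Q-labelled libraries were below every LacZ library, K815R overlapped LacZ, and WT overlapped it for Mcm5 alone.

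Mcm3 fell by 25.5% in the K815Q-labelled libraries (log2 fold change -0.42, SE 0.0805, adjusted p = 0.00207), a call that held in all 6 fits leaving out 1 library, and by 17.0% in WT (-0.27, adjusted p = 0.0495), a call lost without LacZ 2, LacZ 3 or any WT library. Mcm2 fell in the K815Q-labelled libraries by 16.2% (-0.25, SE 0.0612, adjusted p = 0.0129), lost without LacZ 2 or number 1 of that group. Mcm4 fell there too (-0.24, adjusted p = 0.0399), a call lost without LacZ 2, LacZ 3 or any library of that group. Mcm5 (-0.27, adjusted p = 0.059) and Mcm6 (-0.22, 0.0935) did not pass, and Mcm7 was on the other side of 0 (0.10, 0.408). The remaining licensing and firing factors Cdt1, Mcm10, Cdc45 and Gins2 were not called against LacZ (-0.15 to 0.24).

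Among the clamp and nucleotide supply genes, both subunits of ribonucleotide reductase, which makes deoxynucleotides, fell in the K815Q-labelled libraries. Rrm1, the large subunit, stood at 132, 156 and 138 CPM in LacZ, 128, 122 and 125 in WT, 126, 125 and 134 with K815R, and 111, 112 and 114 in the K815Q-labelled libraries. Rrm2, the small subunit, stood at 10.9, 14.9 and 14.1 CPM in LacZ, 8.87, 7.65 and 11.1 in WT, 8.76, 8.95 and 11.1 with K815R, and 6.60, 8.43 and 9.48 in the K815Q-labelled libraries. The libraries labelled K815Q were below every LacZ library for both, and for Rrm1 also below every WT and K815R library.

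Rrm1 fell there by 21.0% (log2 fold change -0.34, SE 0.0557, adjusted p = 0.000561), a call that held in all 6 fits, with -0.18 in WT (0.0545) and -0.15 in K815R (0.189). Rrm2 fell by 38.6% (-0.70, SE 0.159, adjusted p = 0.0152), lost without LacZ 2, LacZ 3 or number 1 of that group, with -0.53 in WT (0.0638) and -0.47 in K815R (0.15). Tyms, thymidylate synthase, fell there too (-0.30, adjusted p = 0.0477), lost without LacZ 2, LacZ 3 or any library of that group, and Tk1, thymidine kinase, was not called (-0.29 to -0.14). Pcna, the sliding clamp of the replicative polymerases, stood at 55.7, 57.7 and 52.9 CPM in LacZ, 64.7, 64.3 and 59.5 in WT, 60.4, 50.2 and 61.2 with K815R, and 58.3, 53 and 58.7 in the K815Q-labelled libraries. It was above LacZ in every WT library, by 0.18 on the log2 scale, which did not pass the test (SE 0.0682, adjusted p = 0.135), and overlapped LacZ in both mutant groups (0.044 and 0.032).

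**Figure D5:**
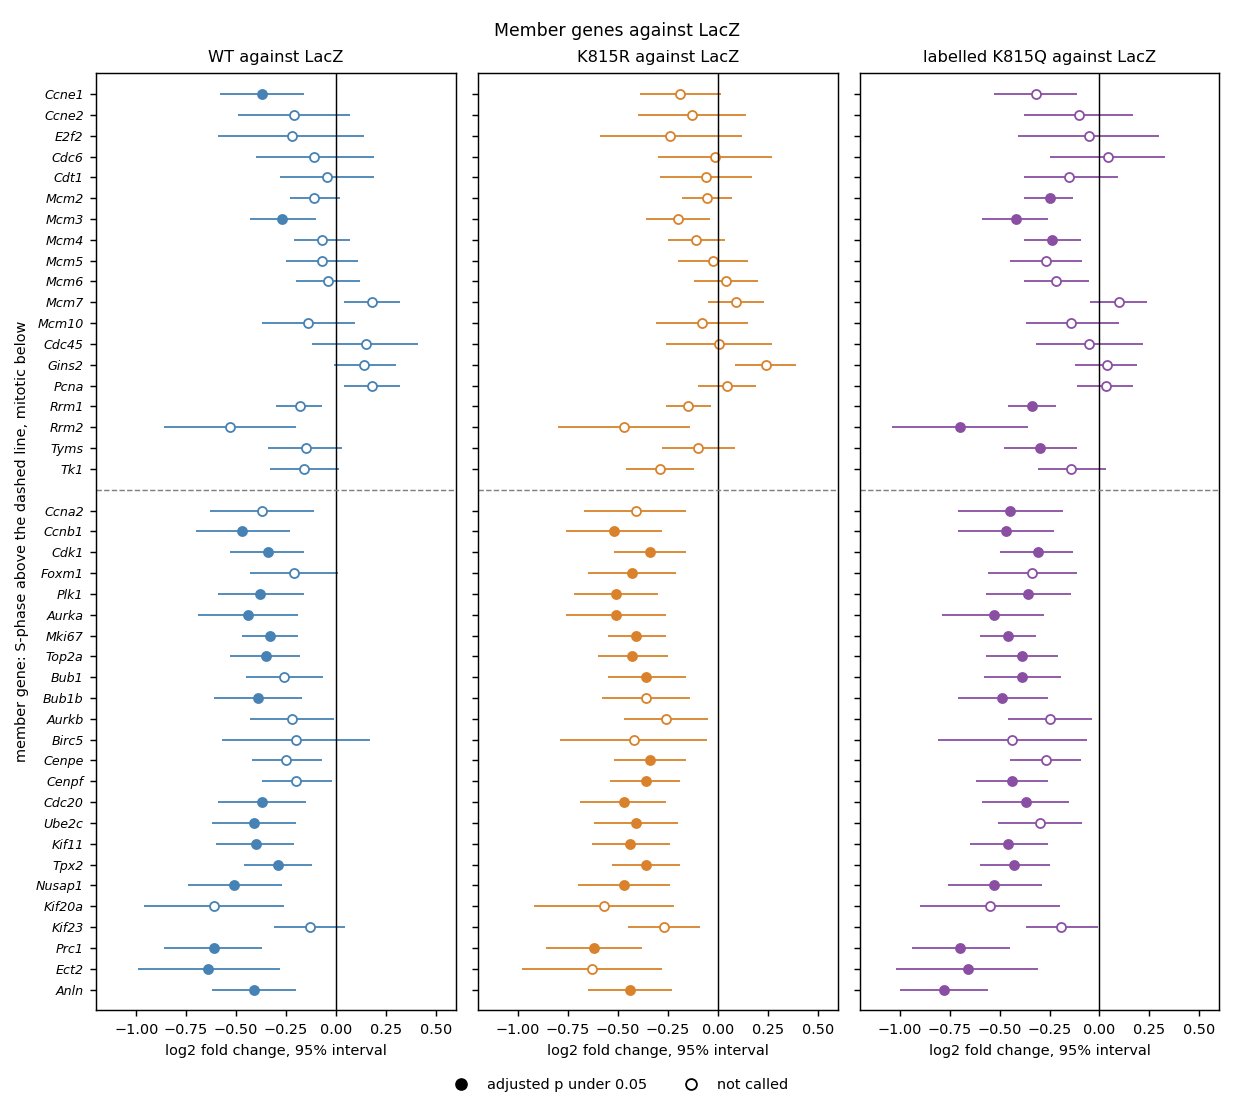
Log2 fold change against LacZ (horizontal axis) with its 95% interval for each of the 43 members, S-phase above the dashed line and mitotic below, in the 3 comparisons. Filled points passed an adjusted p under 0.05. All 24 mitotic points lie left of 0 in each panel, and 15, 17 and 17 of them are filled, against 2, 0 and 6 of 19 S-phase points.

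The forms of KAT6A were then compared with each other, which asks whether the state of that lysine bears on these genes, within the limit set by the Kat6a counts of the third group. Of 43 members, 0 were called in K815R against WT, in the K815Q-labelled libraries against WT, or in K815R against them (edgeR's quasi-likelihood test). DESeq2 also called 0 in each. Members with an unadjusted p under 0.05 numbered 0 of 19 S-phase and 0 of 24 mitotic, 6 and 2, and 7 and 1, in that order. Of all 14063 genes, 1934, 2019 and 1598 had an unadjusted p under 0.05 in the same comparisons. Those passing the adjusted threshold were fewer. Over all genes, 0.882% were lower and 1.32% higher in K815R than in WT, 0.356% and 0.718% in the K815Q-labelled libraries than in WT, and 0.149% and 0.213% in K815R than in the K815Q-labelled libraries.

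These counts do not show that the forms act alike, and the intervals give what the data allow. For K815R minus WT, the 95% intervals of the mitotic members spanned -0.60 to 0.40 on the log2 scale and those of the S-phase members -0.41 to 0.40, with medians of -0.063 and 0.052. For the K815Q-labelled libraries minus WT, they spanned -0.63 to 0.42 and -0.53 to 0.55, with medians of -0.054 and -0.14. For K815R minus the K815Q-labelled libraries, they spanned -0.38 to 0.57 and -0.55 to 0.59, with medians of 0.017 and 0.13.

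The members with an unadjusted p under 0.05 between forms include Anln, Cenpf and several of the S-phase genes named above. Anln was 22.3% lower in the K815Q-labelled libraries than in WT (log2 difference -0.36, SE 0.110, adjusted p = 0.118) and 26.6% higher in K815R than in them (0.34, SE 0.109, adjusted p = 0.195). Cenpf was lower in the K815Q-labelled libraries than in WT by a log2 difference of -0.24 (SE 0.0883, adjusted p = 0.195). Against the K815Q-labelled libraries, K815R was higher by 0.19 for Rrm1 (SE 0.0559, adjusted p = 0.149), 0.20 for Mcm2 (0.0616, 0.168), 0.26 for Mcm6 (0.0796, 0.177), 0.25 for Mcm5 (0.0881, 0.256) and 0.22 for Mcm3 (0.0816, 0.275). None of these passed. With no filter on low counts Anln, Mcm6 and Rrm1 passed between K815R and the K815Q-labelled libraries (adjusted p = 0.0394, 0.03 and 0.0372), and Anln between the latter and WT (0.0234).

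Other genes of the same phases were taken from a wider list. Of 53 other mitotic genes, 8 fell in WT, 12 in K815R and 21 in the K815Q-labelled libraries, beside 3.39%, 1.74% and 4.98% of all genes, and 0 rose. Most of this list did not pass in any 1 comparison, though 51, 49 and 50 of the 53 were below 0. The medians were -0.30, -0.40 and -0.41. Among the lowest called values were those of Ckap2l, a spindle protein, in WT and K815R (-0.68 and -0.64), and that of Nek2, a centrosome kinase, in the K815Q-labelled libraries (-1.0). Ckap2l stood at 5.95, 7.18 and 6.43 CPM in LacZ, 4.46, 3.67 and 4.04 in WT, 4.22, 3.82 and 4.50 with K815R, and 3.22, 3.05 and 4.74 in the K815Q-labelled libraries, with no overlap between LacZ and the rest. Its calls in WT and in the K815Q-labelled libraries held in all fits leaving out 1 library, and that in K815R was lost without LacZ 2 or K815R 2. Kif2c, which depolymerizes microtubules at kinetochores, fell in all 3 comparisons (-0.45, -0.63 and -0.66), the first lost without LacZ 1, LacZ 2 or WT 2. The Nek2 call was lost without LacZ 2 or without number 1 or 2 of that group.

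Of 38 other S-phase genes, 0 fell in WT, 0 in K815R and 2 in the K815Q-labelled libraries. Over all genes, 3.39%, 1.74% and 4.98% fell, so the 2 called are near the share of all genes. At an unadjusted p under 0.05 in edgeR there were 4 in WT and 2 in K815R, beside 2680 and 1938 of all 14063 genes. The medians were 0.034, -0.04 and -0.10. The 2 called genes were the histone chaperone genes Chaf1b (log2 fold change -0.52, adjusted p = 0.0232) and Asf1b (-0.41, 0.0308). Both calls were lost without LacZ 2 or number 2 of that group, that of Chaf1b also without LacZ 3 or number 3, and that of Asf1b also without LacZ 1 or number 1.

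Among 24 tested genes of G1 and upstream regulators, 0 fell and 1 rose in WT and in K815R, and 2 fell and 1 rose in the K815Q-labelled libraries. Over all genes, 3.39%, 1.74% and 4.98% fell and 1.95%, 0.74% and 2.87% rose, so these counts are near the share of all genes. Myc, the growth transcription factor, was the gene that rose in all 3 comparisons. It stood at 19.4, 19.4 and 16.8 CPM in LacZ, 22.2, 22.4 and 22.9 in WT, 22.0, 23.0 and 23.5 with K815R, and 23.8, 24.6 and 21.7 in the K815Q-labelled libraries, with no overlap. Log2 fold changes were 0.28, 0.30 and 0.33 (adjusted p = 0.0265, 0.0242 and 0.00731), and without LacZ 3, the lowest library, all 3 calls were lost. The call in WT was also lost without any WT library and that in K815R without K815R 2 or 3. The D-type cyclins that act in G1, Ccnd1 (0.023 to 0.065) and Ccnd2 (-0.061 to 0.11), were not called. Wee1, the kinase that restrains CDK1, and Cdk2, the partner of cyclin E, fell in the K815Q-labelled libraries alone (-0.29 and -0.20), the first lost without number 1 of that group and the second without LacZ 2, LacZ 3 or number 1 or 3. Neither differed between the forms at the threshold.

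Among 13 tested inhibitors of the cycle, 2 fell and 1 rose in WT, 0 fell and 1 rose in K815R, and 3 fell and 1 rose in the K815Q-labelled libraries. Over all genes, 3.39%, 1.74% and 4.98% fell and 1.95%, 0.74% and 2.87% rose. Cdkn1a, the CDK inhibitor p21, stood at 184, 203 and 177 CPM in LacZ, 144, 135 and 159 in WT, 163, 173 and 171 with K815R, and 156, 132 and 150 in the K815Q-labelled libraries. It fell in WT (log2 fold change -0.36, SE 0.0671, adjusted p = 0.00235) and in the K815Q-labelled libraries (-0.37, SE 0.0671, adjusted p = 0.00207), calls that held in all 6 fits leaving out 1 library, and was not called in K815R (-0.15, adjusted p = 0.299). The direct difference between K815R and WT was 0.21 (SE 0.0673, adjusted p = 0.128) and did not pass. Btg2, an antiproliferative gene, fell in the same 2 groups (-0.24 in each), and both calls were lost without LacZ 1 or LacZ 3, that in WT also without WT 1 or 2, and that in the K815Q-labelled libraries also without number 1 or 3.

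Cdkn2a, the locus of p16 and ARF, whose transcripts the counts do not separate, was low and rose in all 3 comparisons. It stood at 2.72, 2.63 and 2.91 CPM in LacZ, 3.6, 4.03 and 3.94 in WT, 4.33, 4.10 and 3.86 with K815R, and 3.85, 3.71 and 4.69 in the K815Q-labelled libraries. No KAT6A library overlapped LacZ. Log2 fold changes were 0.48, 0.57 and 0.56 (adjusted p = 0.0423, 0.0241 and 0.0151), and 0.54 in the mean of the 3 groups (0.00464), a call that held in all 12 fits. The WT call was lost on leaving out any 1 of its 6 libraries, the K815R call without any LacZ library or K815R 1 or 2, and the other without LacZ 2 or number 3 of that group. Cdkn1b, p27, was not called (0.11 to 0.19).

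Among the inhibitors, 3 were called between the forms, and each of those calls was lost on leaving out at least 1 library. The calls numbered 1, 1 and 2 of 13 in K815R against WT, the K815Q-labelled libraries against WT, and K815R against them. Over all genes the calls numbered 309, 151 and 51 of 14063. Cdkn1c, p57, stood at 28.7, 30.3 and 27.2 CPM in LacZ, 24.2, 24.8 and 28.5 in WT, 34.6, 30.8 and 32.3 with K815R, and 31.5, 28.1 and 27.1 in the K815Q-labelled libraries. K815R exceeded WT by 26.0% (log2 difference 0.33, SE 0.0761, adjusted p = 0.0226), a call lost without WT 1, WT 2, K815R 1 or K815R 3. Rbl1, the pocket protein p107, stood at 4.06, 3.70 and 3.73 CPM in LacZ, 4.26, 3.62 and 3.23 in WT, 4.07, 4.61 and 4.50 with K815R, and 2.34, 2.84 and 2.71 in the K815Q-labelled libraries. It was lower in the last group than in LacZ (-0.54, adjusted p = 0.0269) and 67.2% higher in K815R than in that group (0.74, SE 0.144, adjusted p = 0.0217), and both calls were lost without number 1 or 3 of that group. The first was also lost without any LacZ library and the second without K815R 2 or 3. Cdkn2b, p15, named after its values were seen, had a log2 value higher by 0.42 in the K815Q-labelled libraries than in WT (adjusted p = 0.018), and K815R minus that group was -0.40 (0.0463). The first of these was lost without WT 1, WT 3 or number 1 of that group and the second on leaving out any 1 of its 6 libraries.

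Markers of the cell types such a culture can hold were set beside the mitotic drop. The summed level of 10 fibroblast markers was 14400 to 15200 CPM in LacZ, 13300 to 14400 in WT, 13400 to 13800 in K815R and 14100 to 15200 in the K815Q-labelled libraries. It was thus below LacZ without overlap in K815R, while the range of the K815Q-labelled libraries covered that of LacZ. Of these 10 markers, 1 fell and 1 rose in WT, 0 were called in K815R and 2 rose in the K815Q-labelled libraries. Over all genes, 3.39%, 1.74% and 4.98% fell and 1.95%, 0.74% and 2.87% rose. In edgeR, 6, 3 and 6 of the 10 had an unadjusted p under 0.05, beside 2680, 1938 and 3409 of all 14063 genes. In the same order, 4, 1 and 2 of the 10 lay below LacZ without overlap, beside 12.3%, 9.6% and 14.5% of all genes. The sum of 10 macrophage markers was 74.8 to 95.6 CPM in LacZ, 95 to 101 in WT, 98.2 to 105 in K815R and 101 to 109 in the K815Q-labelled libraries. It lay above LacZ without overlap in K815R and in the K815Q-labelled libraries. Of these macrophage markers, 1 rose in each comparison and 1 fell in the K815Q-labelled libraries, beside the shares of all genes just given. Their median log2 fold changes were 0.12, 0.22 and 0.27.

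The sum of 9 endothelial markers was 335 to 377 CPM in LacZ, 326 to 387 in WT, 353 to 392 in K815R and 315 to 378 in the K815Q-labelled libraries. That of 8 smooth muscle and pericyte markers was 6970 to 7420, 6830 to 7050, 7320 to 7680 and 6810 to 7160 CPM, and that of 9 cardiomyocyte markers 40500 to 43000, 42800 to 43500, 44800 to 45500 and 41000 to 43300. No marker of these lists with a row was at 0 in any library. Ttn and Pecam1 had no row under those symbols. The cardiomyocyte sum lay above LacZ without overlap in K815R alone. The part of the levels of any of these cell types in the lower mitotic transcripts was not tested. The cells that carry the members were not separated in these cultures.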

How the data were processed

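Per the labels' protocols, RNA was extracted with TRIzol, selected for poly(A) in 2 rounds and made into stranded libraries. Per the submitters' processing notes, Trimmomatic 0.39, HISAT2 2.2.1, HTSeq 0.6.1 and edgeR were named, with build Rnor 6.0. The strand setting of the counting is not given in the sources used here. The authors deposited raw read counts per gene. Lines that name no gene (40.7% to 43.3% of all counts, most of them reads that aligned to several places) stayed out of library sizes and tests.

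Counts were scaled by TMM and tested with edgeR 4.0.16 (R 4.3.3) by quasi-likelihood over all 12 libraries, after a filter of 10 counts, with Benjamini-Hochberg adjustment over 14063 genes and a threshold of 0.05. CPM values are TMM-scaled. Intervals are 95% intervals of the fit. The scripts were tested on simulated data. DESeq2 1.42.0, other scalings and filters, a replicate block, fits of 6 libraries and fits leaving out 1 library were alternatives. Replicates of a group differed by more than sampling noise (chi-square per degree of freedom 4.64 to 9.10).

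The members and lists were chosen with earlier results of these data known. Values in every library are given for representatives of each role and for the 10 called members with the lowest p for any difference. From the other lists, the 3 called genes with the highest absolute change per comparison against LacZ could be named, with 5 preset regulators.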

Additional observations from a re-analysis of the deposited data

How the results depend on the processing

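Leaving out 1 library moved the number of members called from 17 to between 1 and 16 in WT, from 17 to between 2 and 16 in K815R, from 23 to between 10 and 24 in the K815Q-labelled libraries, from 23 to between 5 and 25 for any difference and from 25 to between 10 and 26 for the mean of the 3 groups. The lowest counts came without WT 2, without K815R 1 and, for the other 3, without LacZ 2. Calls over all genes moved as well, from 751 to between 378 and 639 in WT and from 348 to between 173 and 308 in K815R. They moved from 1104 to between 360 and 1182 in the K815Q-labelled libraries. For any difference they moved from 1143 to between 650 and 1309, and for the mean from 936 to between 336 and 1226. With no filter on low counts, 1 member was called in the K815Q-labelled libraries against WT and 3 in K815R against them, where the filter gave 0, and the cause was not tested. Over all genes, 423 and 307 of 22491 were called there without the filter, against 151 and 51 of 14063 with it. Every other scaling, filter and tool run kept each of these counts of members within 1.5 times.

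Over all genes tested, same-numbered libraries of different groups deviated together weakly at most. Their r was -0.13 to 0.12 over 18 pairs, 1 of them over 0.1, against -0.13 to 0.15 over 36 other pairs. Among the 3 KAT6A groups every same-numbered pair was above 0 (0.00019 to 0.12), against -0.13 to 0.06 for the other pairs there. Same-numbered pairs with LacZ lay at -0.13 to 0.028. Among the 24 mitotic members, number 3 was the highest of its group for 4 in LacZ, 15 in WT and 21 in K815R. It was the highest for 21 in the K815Q-labelled libraries. Whether same-numbered libraries share any handling was not tested. With the replicate block, 18, 20 and 26 members were called in WT, K815R and the K815Q-labelled libraries, 25 for any difference, 25 for the mean of the 3 groups and 0 between the forms. Calls over all 14063 genes rose with the block too, from 751, 348 and 1104 to 800, 390 and 1280 in the comparisons against LacZ. They rose to 1306 for any difference and 1026 for the mean.

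Signs turned for values near 0 when 1 library was left out. Ranges over those fits were -0.27 to 0.054 (WT), -0.079 to 0.036 (K815R), -0.011 to 0.11 (K815Q-labelled) and -0.082 to 0.027 (mean of 3) for Cdc6, -0.15 to 0.016 (WT) and -0.1 to 0.067 (K815R) for Mcm5, and -0.0062 to 0.13 (K815R) and -0.00098 to 0.077 (K815Q-labelled) for Pcna. They were -0.016 to 0.057 for Ccnd1 and -0.054 to 0.055 for Cdkn1c in the K815Q-labelled libraries, -0.16 to 0.04 for Rbl1 in WT and -0.23 to 0.011 for Chaf1b in K815R. No member had fewer than 54 counts in any library, and with 3 libraries a group the spread between libraries also limits the precision.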
